A study of Mus musculus with 12 samples.

Results

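The genes described here are p53 itself (Trp53), its inhibitor Mdm2, 3 inhibitors of the cyclin-dependent kinases (CDKs) that drive the cell cycle (Cdkn1a, Cdkn1b and Cdkn2a), and 5 further genes known as p53 or stress targets (Btg2, Gadd45a, Ccng1, Gdf15 and Sesn2). They were chosen by symbol, and 10 of the 23183 gene symbols in the deposited tables belong to them. RNA was sequenced from the kidney cortex of male C57BL/6 mice (so named in the labels, and C57BL/6N in the methods) aged 6 to 7 weeks at surgery, taken 7 days after the ureter of 1 kidney had been tied off (unilateral ureteral obstruction, UUO), with the contralateral (CL) kidney as the control. The mice were either wild type (WT) or Acot12-/-, which carry a germline mutation of the acyl-CoA thioesterase gene Acot12 in every cell, made with an RNA-guided nuclease, so that no cell type is targeted alone. There were 4 groups of 3 libraries: WT CL, WT UUO, Acot12-/- CL and Acot12-/- UUO, all at day 7. Values are FPKM (fragments scaled to transcript length and library depth), a level per length, so that levels of different genes can be set side by side.

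As background, p53 is a transcription factor that is held low by Mdm2, an E3 ubiquitin ligase that marks it for degradation and is itself a p53 target, which closes a feedback loop. DNA damage and other stress release p53 mainly at the protein level, after which it raises genes that halt the cell cycle, repair DNA, secrete signals or kill the cell. In the obstructed kidney, tubular cells that stop dividing and release cytokines and growth factors are part of the known course towards fibrosis, and p21, the product of Cdkn1a, is a widely used sign of that arrest.

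Of the 10 genes, 2 hold a near-complete p53 site just upstream of a RefSeq transcription start, and the data below show that they moved in opposite directions after obstruction, which is why their promoters are shown. The windows searched ran from 250 bases before to 50 bases after each start in the GRCm38.p6 assembly, and 13 windows matched the 10 genes. A full p53 site (the consensus pair of decamers without a spacer, which reads alike on both strands) with at most 1 mismatch was found in 2 of those 13 windows and in 22 of 32851 windows in all (0.067%). Each stretch is printed 5′ to 3′ from 250 to 31 bases before the start, with the p53 site in capitals.
Cdkn1a promoter, chr17:29090729-29090948, + strand: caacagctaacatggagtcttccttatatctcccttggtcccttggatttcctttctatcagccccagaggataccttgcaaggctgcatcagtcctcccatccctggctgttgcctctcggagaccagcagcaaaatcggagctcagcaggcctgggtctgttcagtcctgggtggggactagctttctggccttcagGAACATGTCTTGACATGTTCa
Ccng1 promoter, chr11:40755317-40755536, - strand: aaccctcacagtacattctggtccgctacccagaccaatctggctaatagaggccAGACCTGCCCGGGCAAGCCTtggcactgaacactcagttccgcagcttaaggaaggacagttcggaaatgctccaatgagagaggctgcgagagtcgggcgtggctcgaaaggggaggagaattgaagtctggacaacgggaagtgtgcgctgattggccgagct
The Cdkn1a site lies at chr17:29090928-29090947, 51 to 32 bases before the more distal of 2 RefSeq starts and 2822 bases before the other. The Ccng1 site lies at chr11:40755462-40755481, 195 to 176 bases before the start. Each differs from the consensus at 1 base. With up to 3 mismatches allowed, the windows of Cdkn1b and Trp53 matched too, beside 1.38% of all windows. An exact single decamer stood in 5 of the 13 windows (those of Ccng1, Cdkn1a, Gadd45a, Mdm2 and Trp53) and in 8.36% of all windows. A match is a description of these letters and not a measurement of p53 binding, and p53 sites further away were not searched.

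The libraries held 12315000 to 16220000 fragments in CL kidneys by estimate and 18535000 to 22885000 fragments in UUO kidneys, so that obstructed kidneys were measured with less counting error. Acot12 stood at 68.2 ± 13.6 FPKM in CL and 15.98 ± 5.67 FPKM in UUO kidneys of WT mice, and at 8.32 ± 1.32 and 2.98 ± 1.06 FPKM in those of Acot12-/- mice (SD, n = 3 each), so the mutant libraries had the lower level in both kidneys, although RNA of the gene was still present. All 10 proximal tubule markers, which define the bulk of kidney cortex, were measured in every group. Replicate 2 of Acot12-/- CL stood apart from the other 2 of its group on the second principal component (-52.3 against 22.2 and 33.0, a component with 9.46% of the variance). Among the 6 CL libraries it had the lowest value of 4 and the highest value of 2 of the 9 genes other than Cdkn2a, and results that rest on it are given with and without it. Differences are given as differences in log2(FPKM + 1), which understate the change of genes at low levels, with adjusted p from limma over 13243 genes tested.

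The first question was how the arrest programme differed between the obstructed and the contralateral kidney. In WT, 5 of the 10 genes rose (Trp53, Cdkn1a, Gdf15, Btg2 and Gadd45a), 1 fell (Ccng1), 3 did not pass the test (Cdkn1b, Mdm2 and Sesn2) and Cdkn2a was too low to be tested. In Acot12-/-, the same 5 genes rose and the same gene fell. These 6 of 9 genes tested stand beside 47.5% of all genes called in WT and 53.7% in Acot12-/-, so a large part of all genes moved too, and nothing particular to these genes is read from the count. In each genotype 8 of the 9 were called without Acot12-/- CL replicate 2, a library that stood apart, beside 61.8% and 63.4% of all genes. By direction, 23.6% of all genes were called higher and 23.9% lower in WT, and 26.6% higher and 27.2% lower in Acot12-/-. The 3 UUO libraries and the 3 CL libraries did not overlap for 8 of the 9 genes in WT and 5 of 9 in Acot12-/-, beside 71.3% and 55.4% of all genes. The median difference of the 9 genes was 1.17 in WT and 1.02 in Acot12-/-, where that of all genes tested was 0.01 and -0.01. Without Acot12-/- CL replicate 2 the Acot12-/- median was 0.69, beside -0.04 for all genes. In such whole-tissue RNA, fewer cells of a type and less RNA per cell cannot be told apart.

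**Figure D1:**
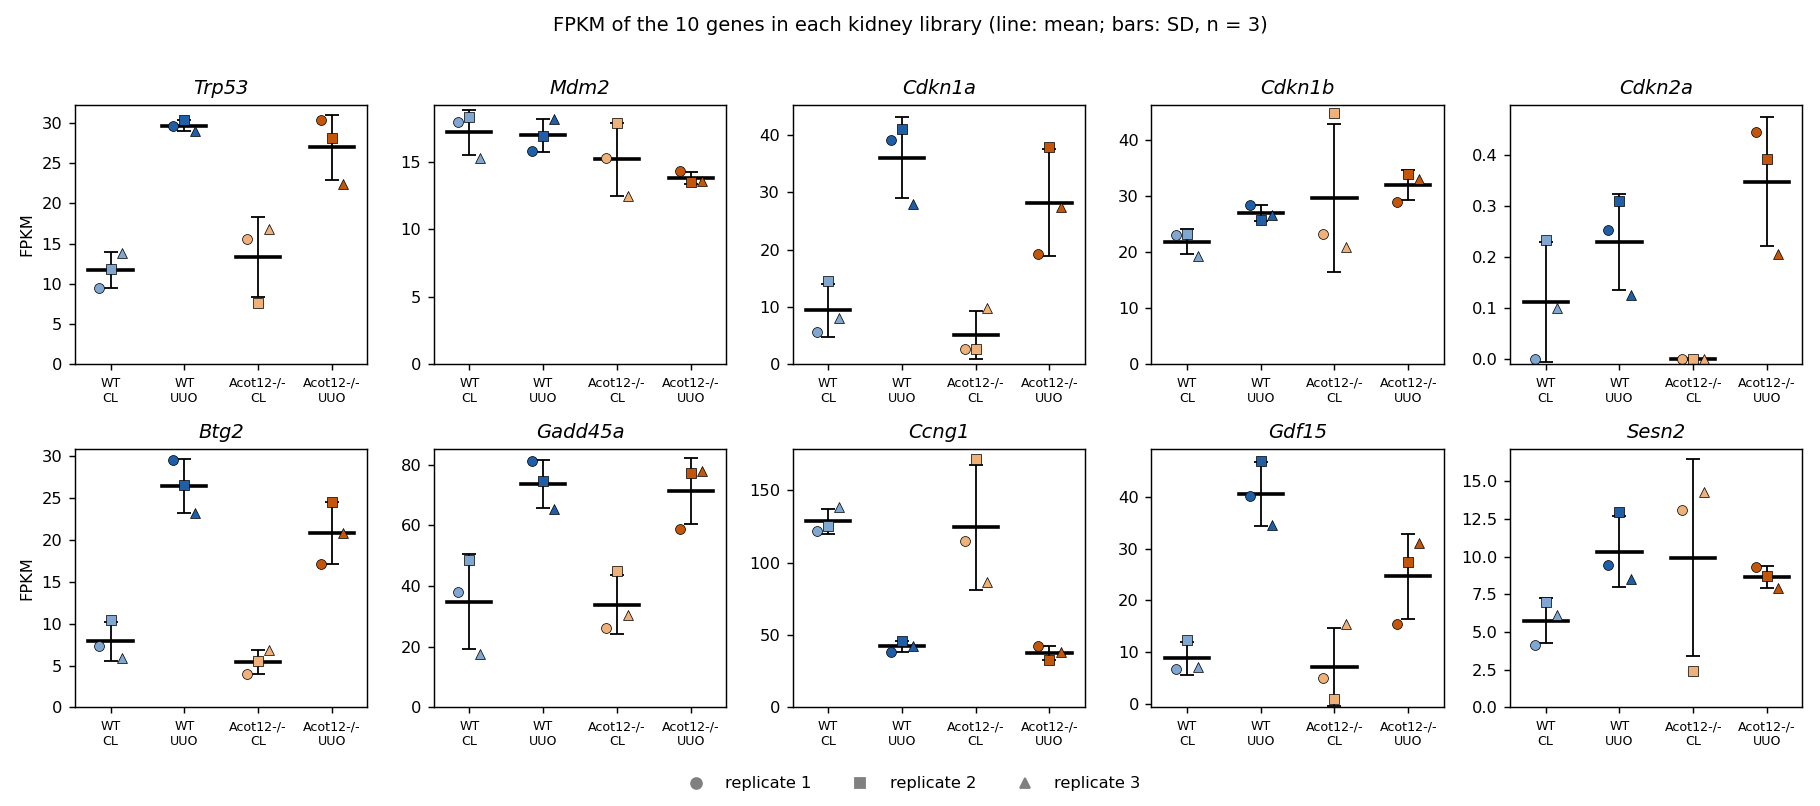
FPKM of each of the 10 genes (vertical axes, each with its own scale) in the 12 libraries, by group on the horizontal axis, with 1 marker shape per replicate number, lines for group means and bars for SD (n = 3). Trp53, Cdkn1a, Btg2 and Gadd45a sit higher in every UUO library than in every CL library of the same genotype, Ccng1 sits lower, and Mdm2 stays between 12.5 and 18.4 FPKM in all 12.

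Trp53 (chr11:69580359-69591873, + strand) measured 9.42, 11.9 and 13.9 FPKM in WT CL and 29.6, 30.4 and 29.0 FPKM in WT UUO. In the mutant mice it stood at 15.6, 7.65 and 16.8 FPKM in CL and at 30.4, 28.2 and 22.5 FPKM in UUO. The UUO libraries lay above every CL library in both genotypes, and the 3 WT UUO libraries differed little from each other (SD 0.712 FPKM). Trp53 RNA was 2.54-fold higher in WT UUO (log2 difference 1.29, SE 0.25, adjusted p = 0.00121) and 2.02-fold higher in Acot12-/- UUO (1.02, adjusted p = 0.00398). Without Acot12-/- CL replicate 2, the library with 7.65 FPKM, the Acot12-/- difference was 0.69 and was still called. Since p53 is controlled mainly as a protein, these values describe its transcript and not its activity.

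Mdm2 (chr10:117688875-117710758, - strand), the p53 inhibitor and a classical p53 target, showed no such rise. It measured 18.0, 18.4 and 15.3 FPKM in WT CL and 15.8, 16.97 and 18.2 FPKM in WT UUO. In Acot12-/- it measured 15.3, 17.9 and 12.5 FPKM in CL and 14.4, 13.5 and 13.6 FPKM in UUO. The ranges of UUO and CL overlapped in both genotypes. The log2 difference was -0.02 in WT (95% interval -0.34 to 0.30, adjusted p = 0.937) and -0.12 in Acot12-/- (-0.43 to 0.20, adjusted p = 0.532), so a rise as large as that of Trp53 lay outside both intervals. The direction of this near-zero value depended on the scaling: with all libraries brought to the same total FPKM, which moved the median of all genes by 0.62 in WT and 0.44 in Acot12-/-, Mdm2 came out at 0.68 in WT (adjusted p = 0.00505) and 0.40 in Acot12-/- (adjusted p = 0.0775). Relative to that median it differed by 0.06 and -0.05.

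The ratio of Mdm2 to Trp53 within a library does not depend on how libraries were scaled. It was 1.91, 1.55 and 1.10 in WT CL and 0.533, 0.557 and 0.628 in WT UUO. In Acot12-/- it was 0.984, 2.34 and 0.741 in CL and 0.473, 0.479 and 0.606 in UUO. Transcripts of the inhibitor therefore exceeded those of p53 in 4 of 6 CL libraries and in none of 6 UUO libraries, and the groups did not overlap in either genotype. The wide CL spread in Acot12-/- comes with replicate 2, which had the lowest Trp53 level of all 12 libraries.

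Cdkn1a (chr17:29090976-29100727, + strand) encodes p21, which binds and blocks cyclin-CDK complexes. It measured 5.64, 14.5 and 7.97 FPKM in WT CL and 39.2, 41.1 and 27.96 FPKM in WT UUO. The Acot12-/- libraries held 2.70, 2.53 and 9.87 FPKM in CL and 19.2, 37.9 and 27.5 FPKM in UUO. Every UUO library exceeded every CL library of its genotype. The mean was 3.85-fold higher in WT UUO (log2 difference 1.91, SE 0.43, adjusted p = 0.00315) and 5.59-fold higher in Acot12-/- UUO (2.43, SE 0.43, adjusted p = 0.000479). The larger fold in Acot12-/- came with a lower CL level, and the interaction of genotype and UUO did not pass the test (0.52, 95% interval -0.79 to 1.83, adjusted p = 0.891).

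Cdkn1b (chr6:134920401-134925513, + strand) encodes p27, the closest relative of p21, which is controlled largely by protein turnover. It measured 23.1, 23.3 and 19.2 FPKM in WT CL and 28.4, 25.7 and 26.7 FPKM in WT UUO. Acot12-/- kidneys gave 23.3, 44.8 and 20.9 FPKM in CL and 29.0, 34.0 and 33.1 FPKM in UUO. The WT groups did not overlap, while in Acot12-/- the single value of 44.8 exceeded all UUO values. The log2 difference was 0.29 in WT (95% interval -0.21 to 0.80, adjusted p = 0.321) and 0.18 in Acot12-/- (-0.32 to 0.69, adjusted p = 0.529). Without Acot12-/- CL replicate 2, which also narrowed the common spread estimate, the difference passed the test at 0.29 in WT (adjusted p = 0.0333) and 0.51 in Acot12-/- (adjusted p = 0.00320). Equal total FPKM also brought the gene past the test in both genotypes, at 1.00 in WT (adjusted p = 0.00326) and 0.71 in Acot12-/- (adjusted p = 0.0254), which is 0.38 and 0.27 above the median of all genes.

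Within a library, p21 transcripts were set against those of p27. The ratio of Cdkn1a to Cdkn1b was 0.244, 0.620 and 0.414 in WT CL and 1.38, 1.60 and 1.05 in WT UUO. The Acot12-/- ratios were 0.116, 0.0565 and 0.472 in CL and 0.662, 1.12 and 0.828 in UUO. All 3 WT UUO libraries held more Cdkn1a than Cdkn1b per length, and 1 of 3 Acot12-/- UUO libraries did, without overlap between UUO and CL in either genotype. The WT and Acot12-/- UUO ranges overlapped.

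**Figure D2:**
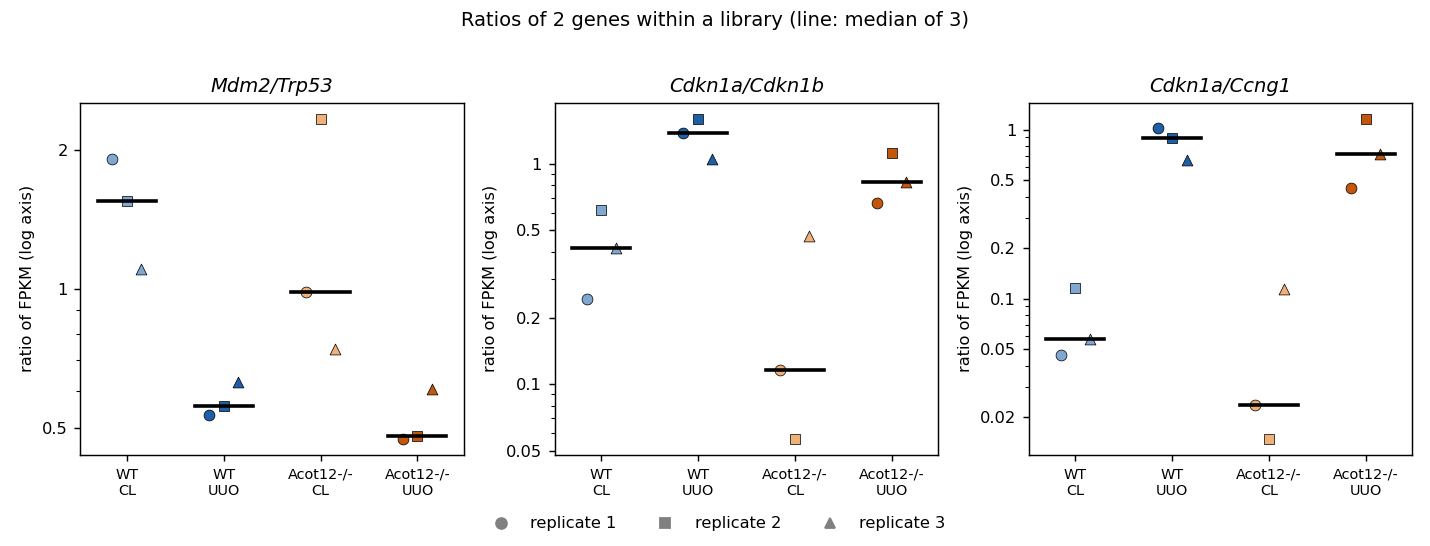
Ratio of the FPKM of 2 genes within each of the 12 libraries (vertical log axes), by group, with 1 marker shape per replicate number and a line at the median of 3. Mdm2/Trp53 falls below 0.65 in all UUO libraries, and Cdkn1a/Cdkn1b and Cdkn1a/Ccng1 are higher in each UUO library than in any CL library of the same genotype.

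Cdkn2a (chr4:89274471-89294653, - strand) encodes p16INK4a and p19ARF, the latter an inhibitor of Mdm2, and is a frequently used senescence gene. It never reached 1 FPKM in any library. It was listed at 0, 0.234 and 0.1 FPKM in WT CL and at 0.252, 0.310 and 0.126 FPKM in WT UUO. The Acot12-/- libraries listed it at 0 in all 3 CL kidneys and at 0.445, 0.391 and 0.205 FPKM in UUO. One fragment on this gene was worth an estimated 0.0662 to 0.123 FPKM, so that the highest value rests on about 6.69 estimated fragments, and the gene-level table does not separate the transcripts of the 2 proteins. All 6 UUO libraries held signal, as did 2 of 6 CL libraries. Without a filter on low values the Acot12-/- difference was 0.43 (adjusted p = 0.00252, beside 41.9% of all genes called in that fit) and the WT difference 0.15 (adjusted p = 0.215, beside 35.9%), and both rest on these few fragments.

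Btg2 (chr1:134075170-134079120, - strand), an antiproliferative early-response gene, measured 7.30, 10.4 and 5.89 FPKM in WT CL and 29.6, 26.6 and 23.2 FPKM in WT UUO. Acot12-/- kidneys gave 3.98, 5.49 and 6.81 FPKM in CL and 17.1, 24.6 and 20.8 FPKM in UUO. No UUO library overlapped with a CL library. The mean was 3.36-fold higher in WT UUO (log2 difference 1.65, SE 0.22, adjusted p = 0.000108) and 3.84-fold higher in Acot12-/- UUO (1.77, SE 0.22, adjusted p = 4.05e-05), and both values kept these calls under every alternative that was run.

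Gadd45a (chr6:67035096-67037457, - strand) encodes a stress protein that binds PCNA, p21 and the mitotic kinase complex of CDK1. It measured 38.1, 48.5 and 17.8 FPKM in WT CL and 81.1, 74.6 and 65.4 FPKM in WT UUO. The Acot12-/- libraries held 26.3, 44.9 and 30.5 FPKM in CL and 58.8, 77.2 and 77.8 FPKM in UUO. It was the most abundant of the 10 transcripts in both UUO groups, and its UUO and CL libraries did not overlap. The rise was 2.12-fold in WT (log2 difference 1.17, SE 0.31, adjusted p = 0.00886) and 2.10-fold in Acot12-/- (1.07, SE 0.31, adjusted p = 0.0117). Without WT CL replicate 3, the library with 17.8 FPKM, the WT difference was 0.76 (adjusted p = 0.0282).

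Ccng1 (chr11:40748552-40755311, - strand) encodes cyclin G1, a p53 target that recruits a phosphatase to Mdm2. It measured 121.9, 125.1 and 138.2 FPKM in WT CL and 38.2, 45.9 and 42.2 FPKM in WT UUO. Acot12-/- kidneys gave 114.6, 171.6 and 86.8 FPKM in CL and 42.3, 32.7 and 38.1 FPKM in UUO. It was the most abundant of the 10 transcripts in both CL groups, above 95.1% of the genes detected in WT CL and 94.4% of those in Acot12-/- CL, and was lower in every UUO library. The mean was 3.05-fold lower in WT UUO (log2 difference -1.59, SE 0.22, adjusted p = 0.000122) and 3.30-fold lower in Acot12-/- UUO (-1.65, SE 0.22, adjusted p = 5.96e-05). Equal total FPKM kept the fall, at -0.86 in WT and -1.11 in Acot12-/-. The Acot12-/- difference was -1.39 without Acot12-/- CL replicate 2, the library with 171.6 FPKM.

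Cdkn1a and Ccng1, whose promoters are printed above, thus moved in opposite directions. The ratio of Cdkn1a to Ccng1 was 0.0463, 0.116 and 0.0577 in WT CL and 1.03, 0.895 and 0.663 in WT UUO. The Acot12-/- ratios were 0.0236, 0.0148 and 0.114 in CL and 0.453, 1.16 and 0.720 in UUO. The lowest UUO ratio exceeded the highest CL ratio in both genotypes.

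Gdf15 (chr8:70629393-70632456, - strand) encodes a secreted growth factor of the TGF-beta superfamily and responds both to p53 and to the stress factor ATF4. It measured 6.82, 12.4 and 7.16 FPKM in WT CL and 40.3, 47.0 and 34.6 FPKM in WT UUO. The Acot12-/- libraries held 4.93, 0.856 and 15.5 FPKM in CL and 15.4, 27.5 and 31.2 FPKM in UUO. The WT groups were far apart, whereas in Acot12-/- the highest CL library and the lowest UUO library met at about the same value. The mean was 4.62-fold higher in WT UUO (log2 difference 2.12, SE 0.59, adjusted p = 0.0107) and 3.48-fold higher in Acot12-/- UUO (2.12, SE 0.59, adjusted p = 0.00895). Within Acot12-/- the size leaned on CL replicate 2, which held 0.856 FPKM: without it the difference was 1.32 (adjusted p = 0.0171), and without CL replicate 3 it was 2.89.

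Sesn2 (chr4:132492032-132510501, - strand) encodes a stress-induced inhibitor of mTORC1 and, like Gdf15, is a target of both p53 and ATF4. It measured 4.13, 7.00 and 6.15 FPKM in WT CL and 9.45, 12.98 and 8.54 FPKM in WT UUO. Acot12-/- kidneys gave 13.1, 2.40 and 14.3 FPKM in CL and 9.35, 8.70 and 7.92 FPKM in UUO. In WT every UUO library exceeded every CL library, while in Acot12-/- 2 CL libraries lay above and 1 below all UUO libraries. The log2 difference was 0.75 in WT (95% interval -0.22 to 1.72, adjusted p = 0.185) and 0.10 in Acot12-/- (-0.87 to 1.07, adjusted p = 0.872). Without Acot12-/- CL replicate 2 it was 0.75 in WT (adjusted p = 0.00391) and -0.61 in Acot12-/- (adjusted p = 0.0207), and the interaction went from -0.65 (adjusted p = 0.846) to -1.36 (adjusted p = 0.0241). In that fit the interaction was called for 6.92% of all genes, against 0.106% with all libraries. The WT difference also passed the test with only the groups compared (0.75, adjusted p = 0.0135) and with equal total FPKM (1.40, adjusted p = 0.00789), the latter 0.78 above the median of all genes.

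**Figure D3:**
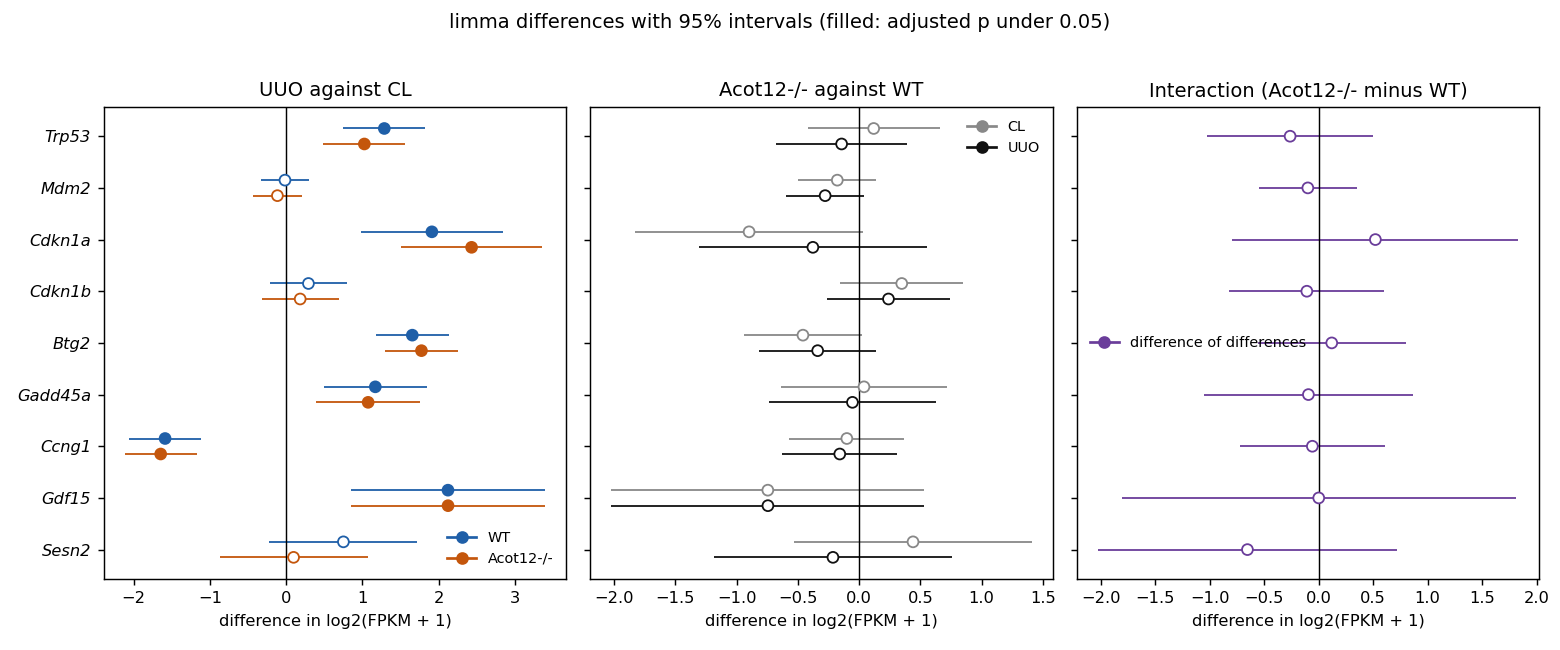
Differences in log2(FPKM + 1) on the horizontal axes for the 9 genes tested, with 95% intervals from limma, for UUO against CL in each genotype (left), Acot12-/- against WT in each kidney (middle) and their interaction (right); filled points have adjusted p under 0.05. Only the left panel holds filled points, the 5 genes that rose and Ccng1, in both genotypes.

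The second question was whether loss of Acot12 changed these transcripts. In the obstructed kidney none of the 9 genes tested differed between Acot12-/- and WT (limma, 0 at adjusted p and 0 at unadjusted p under 0.05), where 2 of 13243 genes were called (0.0151%). The values were lower in Acot12-/- for 8 of the 9 genes, with Cdkn1b the exception, and the median difference was -0.21 beside 0.00 for all genes. Mdm2 came nearest, with all 3 Acot12-/- UUO libraries (13.5 to 14.4 FPKM) below all 3 WT UUO libraries (15.8 to 18.2 FPKM) and a log2 difference of -0.28 (95% interval -0.60 to 0.04, unadjusted p = 0.0826, adjusted p = 1). Gdf15 was also lower without overlap (15.4 to 31.2 against 34.6 to 47.0 FPKM, log2 difference -0.74, interval -2.02 to 0.53), and Cdkn1b was higher without overlap (0.24, interval -0.26 to 0.74). Groups without overlap were found for 3 of the 9 genes and for 12% of all genes. For Cdkn1a the interval of -1.31 to 0.55 still holds differences of more than a doubling, so that like levels are not shown.

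In the contralateral kidney, too, none of the 9 genes differed between genotypes (limma, 0 at adjusted p and 0 at unadjusted p under 0.05), beside 4.48% of all genes called, and none of the 9 was free of overlap, beside 18.3% of all genes. Cdkn1a had the largest difference, with 2.70, 2.53 and 9.87 FPKM in Acot12-/- against 5.64, 14.5 and 7.97 FPKM in WT (log2 difference -0.90, SE 0.43, adjusted p = 0.311). Without Acot12-/- CL replicate 3, the library with 9.87 FPKM, it was -1.43 (adjusted p = 0.0400), and without Acot12-/- CL replicate 2 it was -0.62 (adjusted p = 0.358). Btg2 was lower by -0.46 (adjusted p = 0.318). Sesn2 was higher by 0.44 (adjusted p = 0.698), and by 1.14 (adjusted p = 0.00520) without Acot12-/- CL replicate 2, where the other 2 libraries held 13.1 and 14.3 FPKM. In that fit 22.1% of all genes were called between genotypes in CL. The interaction of genotype and UUO was called for none of the 9 genes (limma, 0 also at unadjusted p under 0.05), beside 0.106% of all genes. Both genotype comparisons and the interaction share libraries with the comparisons of UUO and CL, so that they are not separate evidence.

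Of 39 further p53 targets in 3 lists, 36 were tested, of which 14 rose and 4 fell in WT UUO, and 15 rose and 4 fell in Acot12-/- UUO, the latter 17 and 7 without Acot12-/- CL replicate 2 (63.4% of all genes called). This is 18 of 36 in WT and 19 of 36 in Acot12-/-, close to the share of all genes called, with medians of 0.15 and 0.22. They are described by role below, without a test between the lists. Of 12 targets listed under arrest and secreted, 8 rose and none fell in WT, and 7 rose and none fell in Acot12-/- (median differences 0.61 and 0.88). Beside them, 47.5% of all genes were called in WT and 53.7% in Acot12-/-. The list is broader than its name and also holds genes such as Ckap2, Psrc1, Cd82 and Steap3. Its counts are therefore not a measure of arrest. Without Acot12-/- CL replicate 2 the Acot12-/- count was 8 higher and 1 lower, the latter Steap3, a metalloreductase, at -0.50 (adjusted p = 0.0237). Sfn, the G2 arrest protein 14-3-3 sigma, rose from 8.91 ± 3.76 to 71.0 ± 1.97 FPKM in WT and from 7.11 ± 5.48 to 65.9 ± 15.8 FPKM in Acot12-/- (SD, n = 3). Thbs1, the matrix protein thrombospondin 1, rose by 1.42 and 1.74 on the log2 scale, and Ptp4a3, a protein tyrosine phosphatase, rose by 0.65 and 1.62.

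Of 14 targets in cell death and survival, 5 rose and 2 fell in WT, and 6 rose and 2 fell in Acot12-/- (medians 0.16 and 0.28). These counts lie near the share of all genes called, 47.5% in WT and 53.7% in Acot12-/-. The BH3-only killer Bbc3 (PUMA) rose from 1.398 ± 0.511 to 8.82 ± 0.589 FPKM in WT and from 1.07 ± 0.630 to 8.68 ± 0.977 FPKM in Acot12-/-, and Pmaip1 (NOXA) rose by 2.17 and 1.51 on the log2 scale. Phlda3, an inhibitor of Akt, rose by 1.08 and 1.79. Against them Ei24, an endoplasmic reticulum protein, fell from 82.4 ± 6.70 to 49.3 ± 2.60 FPKM in WT and from 101.4 ± 6.21 to 49.5 ± 5.57 FPKM in Acot12-/-, and Perp, a desmosomal protein, had differences of -0.64 and -0.87. Bax, the pore-forming effector, was at 0.16 (adjusted p = 0.740) and 0.24 (adjusted p = 0.621). The sign in Acot12-/- depended on CL replicate 2, without which the difference was -0.32 (adjusted p = 0.213).

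Of 10 targets in DNA repair and metabolism, 1 rose and 2 fell in WT, and 2 rose and 2 fell in Acot12-/- (medians -0.07 and -0.10). Beside these counts, 47.5% of all genes were called in WT and 53.7% in Acot12-/-. Ddb2, a sensor of ultraviolet damage, rose by 0.46 and 0.64. Rrm2b, the p53-induced ribonucleotide reductase subunit, fell from 10.6 ± 1.06 to 3.85 ± 0.108 FPKM in WT and from 9.47 ± 5.09 to 3.52 ± 0.248 FPKM in Acot12-/-. The thiamine transporter Slc19a2 had differences of -0.52 and -0.98.

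**Figure D4:**
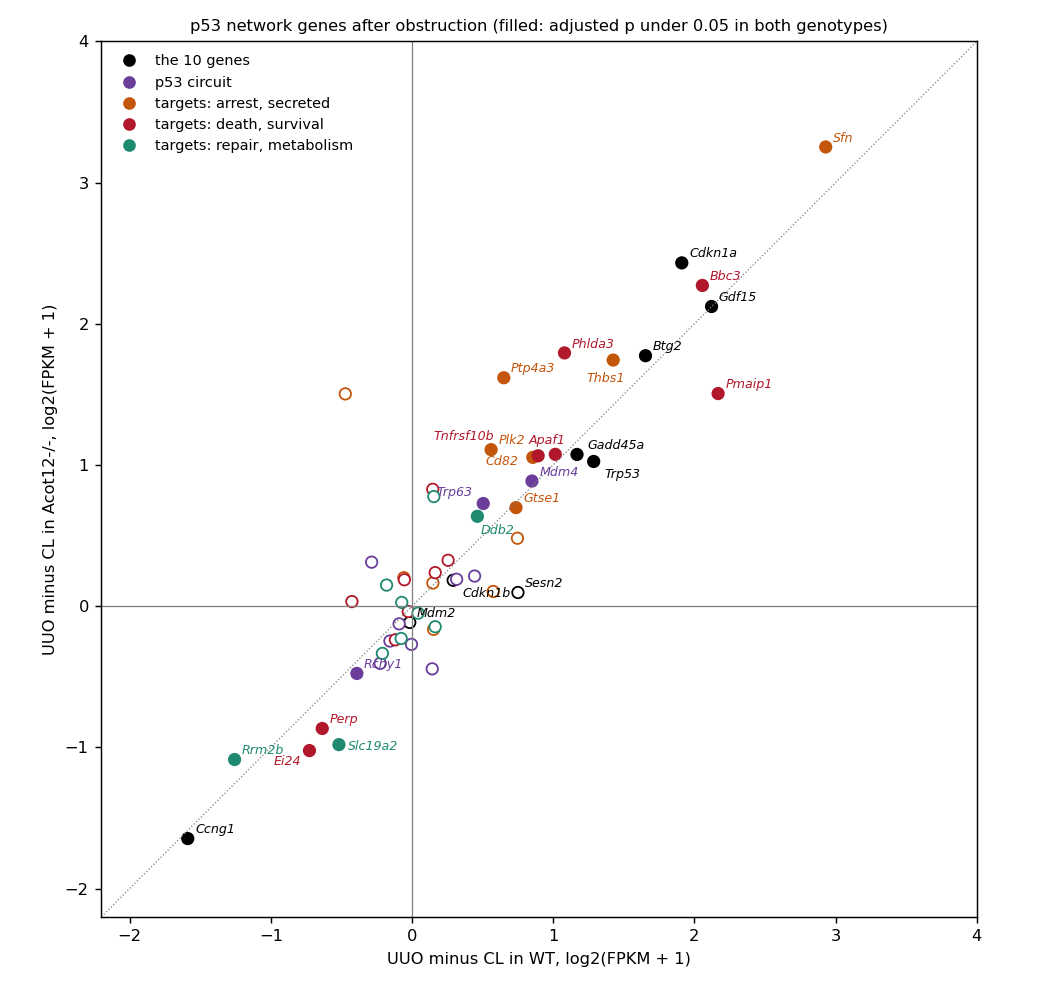
Difference between UUO and CL in log2(FPKM + 1) in WT (horizontal axis) and in Acot12-/- (vertical axis) for the tested genes among the 10, the p53 circuit and the 3 target lists, 1 colour per list; filled points have adjusted p under 0.05 in both genotypes and the dotted line marks equal differences. No filled point of the arrest and secreted targets lies below 0, and Sfn lies highest among them, while Ccng1, Rrm2b, Ei24, Perp, Slc19a2 and Rchy1 lie at the lower left.

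Among 11 tested genes of the p53 circuit (its kinases, ligases and relatives), 2 rose and 1 fell in WT, and 2 rose and 3 fell in Acot12-/-, with medians of -0.00 and -0.13. The share of all genes called was 47.5% in WT and 53.7% in Acot12-/-. Mdm4, the second inhibitor of p53, rose from 4.79 ± 0.839 to 9.37 ± 0.638 FPKM in WT and from 4.18 ± 1.70 to 8.26 ± 0.661 FPKM in Acot12-/- (adjusted p = 0.00485 and 0.00298), whereas Mdm2 did not rise. Rchy1, the ligase Pirh2, fell by 0.39 in WT and 0.48 in Acot12-/- on the log2 scale. In WT the list's count of 3 became 5 without Acot12-/- CL replicate 2, beside 61.8% of all genes called. For Acot12-/- that fit gave 4 higher and 2 lower with a median of 0.07, beside 63.4% of all genes called.

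Among the 4 other CDK inhibitors, Cdkn2b (p15), the neighbour of Cdkn2a, rose from 1.298 ± 0.126 to 3.91 ± 0.351 FPKM in WT and from 1.18 ± 0.780 to 3.87 ± 1.305 FPKM in Acot12-/- (log2 differences 1.10 and 1.198). Cdkn2c (p18) was at -0.24 in WT (adjusted p = 0.138) and fell by 1.06 in Acot12-/- (adjusted p = 3.62e-05), and the difference between genotypes did not pass the test (interaction -0.81, adjusted p = 0.1002). The interaction of Cdkn2c was -0.74 (adjusted p = 0.0227) without Acot12-/- CL replicate 2. In CL kidneys it was higher in Acot12-/- than in WT by 0.63 (adjusted p = 0.0184), the 1 of these 4 genes called there, and by 0.56 (adjusted p = 0.00715) without that library. These make 1 called of 4 in WT, or 2 without Acot12-/- CL replicate 2, and 2 of 4 in Acot12-/-. Of 10 relatives of the genes described, 4 rose and 1 fell in WT, and 5 rose and 1 fell in Acot12-/-. With all libraries, the counts of both lists stand beside 47.5% of all genes called in WT and 53.7% in Acot12-/-. Gadd45b rose from 3.05 ± 0.763 to 13.6 ± 1.29 FPKM in WT and from 1.75 ± 0.222 to 14.3 ± 4.16 FPKM in Acot12-/-, and Btg1 rose by 1.18 and 1.42 on the log2 scale, as their relatives Gadd45a and Btg2 did. Tob1, of the Btg2 family, had differences of -0.86 and -1.35.

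Few cell cycle genes fell beside these inhibitors. Of 19 tested cyclins, CDKs and replication genes, 10 rose and 1 fell in WT, and 6 rose and 1 fell in Acot12-/-, the latter 10 and 2 without Acot12-/- CL replicate 2. Of all genes, 23.6% were called higher and 23.9% lower in WT, and 26.6% higher and 27.2% lower in Acot12-/-. Ccnd3, cyclin D3, fell in Acot12-/- in the fit without that library, at -0.77 (adjusted p = 0.00383), where 63.4% of all genes were called. Mcm3 of the replicative helicase rose by 1.12 and 0.82, Cdk4 by 0.91 and 0.62 and Cdk6 by 0.84 and 1.299. The gene that fell in both genotypes was Ccnd1, cyclin D1, from 109.1 ± 17.4 to 44.9 ± 2.13 FPKM in WT and from 146.4 ± 11.1 to 59.5 ± 2.89 FPKM in Acot12-/-. Mki67, the proliferation marker, was at 0.38 in WT (adjusted p = 0.180) and 0.54 in Acot12-/- (adjusted p = 0.0561). Leaving out Acot12-/- CL replicate 2 gave 0.38 in WT (adjusted p = 0.0721) and 0.78 in Acot12-/- (adjusted p = 0.00419). Mki67 was thus called higher in Acot12-/- in that fit, beside 63.4% of all genes called.

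Of 9 tested senescence markers, 6 rose and 1 fell in WT, and 7 rose and 1 fell in Acot12-/- (medians 1.24 and 1.45). These counts stand beside 47.5% and 53.7% of all genes called. The list includes Lmnb1 and Hmgb2, which mark senescence by their loss, so the counts and medians are not a measure of senescence. In the fit without Acot12-/- CL replicate 2 both were called higher, Lmnb1 by 1.24 in WT and 1.09 in Acot12-/-, and Hmgb2 by 0.47 and 0.80. These WT differences are the same with all libraries, since that library is in neither WT group. The Acot12-/- count was 7 higher and 1 lower in both fits. The chemokines Cxcl1 and Ccl2 led, with log2 differences of 4.39 and 3.77 in WT and of 3.97 and 4.35 in Acot12-/-, and the urokinase receptor Plaur rose by 2.51 and 3.22. Glb1, the lysosomal beta-galactosidase, had differences of -0.87 and -1.295. Of 11 tested ATF4 and ATF6 stress targets, to which Gdf15 and Sesn2 are related, 5 rose and 3 fell in WT, and 7 rose and 3 fell in Acot12-/-. Atf3, an early stress transcription factor, rose by 2.38 and 2.71, the asparagine synthetase Asns by 1.96 and 1.305, and Trib3, a pseudokinase, by 1.43 and 1.63. The lipoprotein receptor Vldlr was at -1.14 and -1.28, and Psat1 of serine synthesis at -0.80 and -1.53, both past the test in both genotypes.

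Between genotypes in UUO none of the 36 further targets was called (limma, 3 at unadjusted p under 0.05), and in CL 1 was, Igfbp3, a secreted binder of insulin-like growth factors, with a difference of -1.72 (adjusted p = 0.0104). Without Acot12-/- CL replicate 2, that count in CL was 2 higher and 3 lower, or 5 of 36 beside 22.1% of all genes called. The interaction was called for none of the 36 (limma, 4 at unadjusted p under 0.05), and for 3 of 36 without that library (Trp53inp1, Sesn1 and Igfbp3), beside 6.92% of all genes.

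Markers of cell types moved with UUO at the same time. Their counts in UUO against CL stand beside 47.5% of all genes called in WT and 53.7% in Acot12-/-. The summed level of 10 injured tubule markers was 1080 to 3126 FPKM in WT CL and 15879 to 17569 FPKM in WT UUO, while Acot12-/- kidneys gave 1834 to 5083 FPKM in CL and 17248 to 19014 FPKM in UUO, and all 10 rose in both genotypes. The sum of 10 macrophage markers was 168 to 189, 721 to 860, 57.6 to 126 and 770 to 1000.0 FPKM in the same order of groups, and 9 of 10 rose in WT and 10 of 10 in Acot12-/-. The sum of 10 fibroblast markers was 149 to 191, 382 to 548, 51.1 to 117 and 376 to 522 FPKM, with 7 of 10 and 10 of 10 higher. The sum of 10 proximal tubule markers was 3127 to 4269, 424 to 1006, 3431 to 6415 and 267 to 1274 FPKM, with 9 of 10 and 10 of 10 lower. Of the other lists, all 7 markers of the distal tubule and loop were lower in both genotypes, and 4 of 5 collecting duct markers in WT and 3 in Acot12-/- were lower. Of 6 lymphocyte markers tested, 5 were higher in each genotype, while 1 of 8 endothelial markers was higher and 4 were lower in WT and 5 were higher in Acot12-/-. In CL, 4 of 10 macrophage, 3 of 10 fibroblast, 3 of 6 lymphocyte and 6 of 8 endothelial markers were lower in Acot12-/- than in WT, and without Acot12-/- CL replicate 2 these counts were 7, 9, 4 and 8. Of all genes, 4.48% were called between genotypes in CL, and 22.1% without that library, so calls rose in general. No marker of the macrophage, fibroblast, endothelial or tubular lists was at 0 in all libraries of a group, and the part of cell composition in the changes of the 10 genes was not tested.

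The genes whose levels over the 12 libraries were most like that of Cdkn1a, among 8837 genes with a mean of at least 5 FPKM, were Phlda3 (Pearson r = 0.983), Scx (0.977) and Rhob (0.975). Those most like Trp53 were Lasp1 (0.989), Ccar2 (0.987) and Frmd8 (0.983). These are descriptions over 12 libraries that share the large split between UUO and CL, and many genes reach a high r by that split.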

How the data were processed

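RNA libraries of 12 kidneys were sequenced by the authors (Trizol-type extraction, directional NEBNext Ultra II libraries, NovaSeq), and a service company trimmed, mapped and normalised the reads. The deposited values are FPKM, 1 table per library; the processing notes name mm10 and edgeR, while the aligner, annotation and versions are not given in the sources used here. That the unit is FPKM, and the depth, were read from the values: low values step by what 1 fragment is worth at a gene's length. Depths are estimates, and 1 fragment equals about 0.0437 to 0.0812 FPKM on 1 kb of effective length.

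Groups came from the sample titles. Genes with at least 1 FPKM in at least 3 libraries were kept, and 28 genes listed at 0 in 1 library but at 10 FPKM or more in another of its group were left out, which left 13243. log2(FPKM + 1) was fitted over all 4 groups with limma 3.58.1 (R 4.3.3, trended empirical Bayes, two-sided, Benjamini-Hochberg adjustment over all genes, threshold 0.05), and the fit was tested on simulated data. Calls refer to adjusted p under 0.05. Of the p53 targets listed, 1 gene is not reported here and was left out of the list counts. Figures and summaries used Python 3.11.15. Nothing in the labels says that replicates were separate litters or batches, so p-values measure the spread between these animals' libraries.

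The 10 genes and all lists were chosen with earlier results of these data known. Of each list, the text names up to 3 genes with the largest rise and up to 2 with the largest fall among those called alike in both genotypes with a mean of at least 1 FPKM. Bax, Mki67, Igfbp3, Cdkn2c, Steap3, Trp53inp1, Sesn1, Lmnb1, Hmgb2 and Ccnd3 were added after their values were seen. Promoter windows are from RefSeq (GRCm38.p6), and gene positions from GENCODE vM21 on GRCm38; all 10 symbols matched. Cdkn1a, Gadd45a and Sesn2 overlap non-coding genes there, and whether strand was used in counting is not given in the sources used here, so fragments in the overlaps may be shared. Same-numbered CL and UUO libraries deviated together (residual correlations of 0.134, 0.364 and 0.335 in WT and 0.322, 0.186 and 0.318 in Acot12-/-), so the numbers were taken to pair the kidneys of a mouse. Differently numbered libraries of a genotype had correlations of -0.363 to 0.139. The highest of these, WT CL replicate 2 with WT UUO replicate 1, lay above the 0.134 of the first WT pair, and the labels do not state the pairing. Alternatives were a pseudocount of 0.1, no filter, the 28 genes kept, equal total FPKM, median-ratio scaling, no trend, only the groups compared, a replicate block and each library left out. Counting the lists without Acot12-/- CL replicate 2 was chosen after seeing the data.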

Additional observations from a re-analysis of the deposited data

How the results depend on the processing

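The 6 calls of UUO against CL (5 higher, 1 lower) held in both genotypes under all alternatives run, with 6 to 9 of the genes called in WT and 6 to 8 in Acot12-/-. Beside the report's own cases, only the groups compared gave 8 in WT. No genotype difference in UUO was called under any alternative. In CL and in the interaction the count ranged from 0 to 1 over the leave-one-out fits. With replicate number as a block, the consensus correlation was 0.208, and both the block as a random effect and as a fixed term kept 6 and 6 calls in the paired kidneys, so it changed no call for these genes; over all genes the interaction had 203 and 83 calls in place of 14. Over all genes, leaving out single libraries moved the genotype calls in CL from 593 to between 189 and 2923 and those of the interaction from 14 to between 0 and 916, both highest without Acot12-/- CL replicate 2; only the groups compared gave 1 and equal total FPKM 329 in CL.

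Equal total FPKM, which moved the median of all genes by 0.62 in WT and 0.44 in Acot12-/-, called 7427 genes higher and 1047 lower in WT in place of 3129 and 3161, and 6078 higher and 1552 lower in Acot12-/- in place of 3518 and 3596. It turned Mdm2 to 0.68 in WT and 0.40 in Acot12-/-, and the interactions of Gdf15 to -0.23 and of Btg2 to -0.079. The cause was not tested.

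Leaving out single libraries changed the sign of small differences. In UUO against CL, Mdm2 ranged from -0.095 to 0.032 in WT and from -0.24 to 0.0014 in Acot12-/-, Cdkn1b in Acot12-/- from -0.019 to 0.51 and Sesn2 in Acot12-/- from -0.61 to 0.48. Between genotypes in UUO, Gadd45a ranged from -0.14 to 0.076. Between genotypes in CL, Trp53 ranged from -0.072 to 0.45, Ccng1 from -0.36 to 0.13, Gdf15 from -1.52 to 0.060 and Gadd45a from -0.37 to 0.33. In the interaction, Cdkn1b ranged from -0.31 to 0.22, Mdm2 from -0.23 to 0.018, Ccng1 from -0.29 to 0.20, Gdf15 from -0.80 to 0.77, Btg2 from -0.079 to 0.29 and Gadd45a from -0.38 to 0.32. None of these intervals excluded 0 in the fit with all libraries. With 3 libraries a group, the intervals of the genotype differences of Gdf15, Sesn2 and Cdkn1a were wide, and Cdkn2a lay at the depth limit.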
